A study of Mus musculus with 36 samples.

Results

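The 45 genes described here encode proteins that copy DNA in S phase or that carry a cell through mitosis. They and the further lists below were chosen by name, with earlier results of these data known. Their counts beside the shares of all genes are therefore descriptions and not independent tests. The list holds 14 replication genes (Mcm2 to Mcm7, Pcna, Rrm2, Tyms, Tk1, Cdc6, Cdt1, Ccne1 and Ccne2) and 31 mitosis genes. For each gene the probe set with the highest mean over all 36 arrays was used. Ccnb1 had no probe set of its own, so 44 of the 45 genes were measured, out of 18193 genes with a probe set in the series. Of these 44, 34 passed the filter on dim probe sets, 11 of the replication genes and 23 of the mitosis genes, among 12626 genes tested. The 10 below the filter were Cdc6, Tk1 and Tyms on the replication side and Bub1, Bub1b, Ect2, Kif20a, Melk, Nek2 and Ttk on the mitosis side.

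The study asked how the adult mouse heart answers when different MAP kinase pathways are switched on in its muscle cells. RNA of the left ventricle was hybridised to Affymetrix Mouse Genome 430 2.0 arrays, 1 sample per array. The transgenes were HRas-v12, a mutant HRas locked in its signalling state, MKK3bE, an active form of a kinase upstream of p38, and MKK7D, an active form of a kinase upstream of JNK. Each was a floxed transgene under the alpha myosin heavy chain (αMHC) promoter, and the same promoter drove Mer-Cre-Mer, the recombinase that tamoxifen activates, so both act in heart muscle cells. All lines had a C57black background.

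HRas-v12 hearts were taken early, 4 to 7 days after the first tamoxifen injection (2 female and 3 male arrays), and late, at 2 to 4 weeks (3 of each sex). MKK3bE hearts gave 2 female early arrays, with 2 female and 3 male late arrays. MKK7D hearts were female, with 3 arrays at each time. Their controls, labelled MKK7D control, were also female, with 3 arrays at each time. The controls of the other 2 lines were 3 male and 3 female arrays without a time in their titles, and they served both times, so those comparisons share control arrays. Controls were littermates without transgenes, and tamoxifen was given to the mice of every group, at 12 weeks of age, as 20 mg/kg on each of 3 days in a row. The titles number the arrays as replicates and do not state whether each came from its own animal, and p-values therefore cover the spread between these arrays only, and their number limits the precision.

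A cell that divides first licenses its replication origins by loading the MCM helicase with the help of Cdc6 and Cdt1, and cyclin E with its kinase then starts DNA synthesis. Later cyclins A and B with Cdk1 drive entry into mitosis, where kinesins, Aurora and Polo kinases and the spindle checkpoint move the chromosomes, and the anaphase-promoting complex with Cdc20 and Ube2c ends the division. Adult heart muscle cells rarely divide, while fibroblasts, endothelial cells and macrophages of the heart can. Replication genes are commonly described as targets of E2F factors, and mitosis genes as targets of the DREAM and MuvB complexes, which act with NF-Y and FOXM1 through an element called CHR.

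Promoter sequences were looked at first, because textbooks describe a transcriptional control of its own for each group of genes. The rule for the genes did not use sequence. RefSeq promoter windows (build GRCm38.p6, 250 bases before to 50 after the start of the gene) were given for 38 of the 45 genes. Ccna2, Aurkb, Kif20a, Tpx2, Foxm1, Mcm4 and Ccne2 were not among them. The following 6 are shown, 3 of mitosis genes with the motifs of that group, that of Cenpf, the gene that fell in MKK3bE hearts, and 2 of MCM helicase genes. Each is written 5′ to 3′ on the strand of its gene, with capitals marking every match to a CHR, an NF-Y box or an E2F motif on either strand. A CHR was spelled TTTGAA, or with a C in the middle TTCGAA. An NF-Y box was spelled CCAAT. An E2F motif was spelled TTTCGCG, or with other middle letters TTTGGCG, or with the remaining accepted spelling TTTCCCG. Cdk1 lies at chr10:69352863-69353162 on the minus strand, Top2a at chr11:99024140-99024439 on the minus strand and Ube2c at chr2:164769679-164769978 on the plus strand. Cenpf lies at chr1:189688037-189688336 on the minus strand, Mcm3 at chr1:20820263-20820562 on the minus strand and Mcm5 at chr8:75109259-75109558 on the plus strand.
Cdk1: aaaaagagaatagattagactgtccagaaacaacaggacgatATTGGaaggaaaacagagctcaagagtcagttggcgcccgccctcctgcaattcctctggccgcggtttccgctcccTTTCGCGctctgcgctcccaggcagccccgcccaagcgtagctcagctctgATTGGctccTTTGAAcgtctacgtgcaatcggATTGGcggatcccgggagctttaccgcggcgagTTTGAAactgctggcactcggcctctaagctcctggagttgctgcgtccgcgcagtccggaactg
Top2a: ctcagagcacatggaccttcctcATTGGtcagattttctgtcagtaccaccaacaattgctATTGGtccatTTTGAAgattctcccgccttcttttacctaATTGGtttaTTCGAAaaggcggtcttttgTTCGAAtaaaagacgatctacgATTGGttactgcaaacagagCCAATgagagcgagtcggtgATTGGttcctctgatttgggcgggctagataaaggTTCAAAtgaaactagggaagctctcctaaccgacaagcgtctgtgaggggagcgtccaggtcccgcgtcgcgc
Ube2c: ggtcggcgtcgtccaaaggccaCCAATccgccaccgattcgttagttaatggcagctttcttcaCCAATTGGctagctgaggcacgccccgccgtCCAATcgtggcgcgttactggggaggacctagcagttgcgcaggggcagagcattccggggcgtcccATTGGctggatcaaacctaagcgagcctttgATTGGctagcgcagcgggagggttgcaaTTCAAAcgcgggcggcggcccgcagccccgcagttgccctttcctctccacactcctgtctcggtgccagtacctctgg
Cenpf: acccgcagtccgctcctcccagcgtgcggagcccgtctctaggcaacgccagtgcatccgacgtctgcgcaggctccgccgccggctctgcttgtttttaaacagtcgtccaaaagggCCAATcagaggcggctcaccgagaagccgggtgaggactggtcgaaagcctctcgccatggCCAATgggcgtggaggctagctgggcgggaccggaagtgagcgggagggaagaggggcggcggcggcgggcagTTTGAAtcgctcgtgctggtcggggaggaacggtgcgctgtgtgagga
Mcm3: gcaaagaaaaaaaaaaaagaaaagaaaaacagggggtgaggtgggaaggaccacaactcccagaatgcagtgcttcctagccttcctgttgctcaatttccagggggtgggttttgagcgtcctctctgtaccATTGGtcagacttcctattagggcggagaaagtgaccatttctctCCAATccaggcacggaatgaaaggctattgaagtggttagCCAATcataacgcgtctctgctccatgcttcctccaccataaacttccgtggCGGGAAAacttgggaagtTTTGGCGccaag
Mcm5: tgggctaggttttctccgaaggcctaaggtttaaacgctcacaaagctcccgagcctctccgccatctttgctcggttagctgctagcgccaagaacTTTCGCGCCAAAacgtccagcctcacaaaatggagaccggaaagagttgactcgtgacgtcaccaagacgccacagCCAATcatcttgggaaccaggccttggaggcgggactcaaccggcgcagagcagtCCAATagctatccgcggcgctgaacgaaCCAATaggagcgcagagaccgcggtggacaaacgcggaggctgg

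The Cdk1 window held 2 CHR matches, 3 NF-Y boxes and 1 E2F match. The CHR copy nearest to the start lay 15 to 10 bases before it. Top2a held 4 CHR matches and 6 NF-Y boxes, and Ube2c 1 and 6. In Cenpf the CHR lay 3 to 8 bases after the start, with 2 NF-Y boxes before it. Mcm3 and Mcm5 each had 3 NF-Y boxes and 2 E2F matches and no CHR in the window. The 2 E2F matches of Mcm5 overlap, as do 2 of the NF-Y boxes of Ube2c, and there were 3 such overlapping pairs among the 117 matches in the 38 windows.

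Over all mitosis genes with a window, 20 of 26 (76.9%) had a CHR, against 2 of 12 replication genes (16.7%) and 19.4% of the 27025 windows of the whole table. A CHR together with an NF-Y box stood in 19 of 26 mitosis windows (73.1%), in 2 of 12 replication windows (16.7%) and in 7.7% of all windows. The NF-Y box alone was found in 84.6% of the mitosis windows, 58.3% of the replication windows and 37.9% of all windows. E2F motifs went the other way, with 6 of 12 replication windows, 4 of 26 mitosis windows (15.4%) and 5.72% of all windows. A match of these letters is a description of the window and not a bound site.

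**Figure D1:**
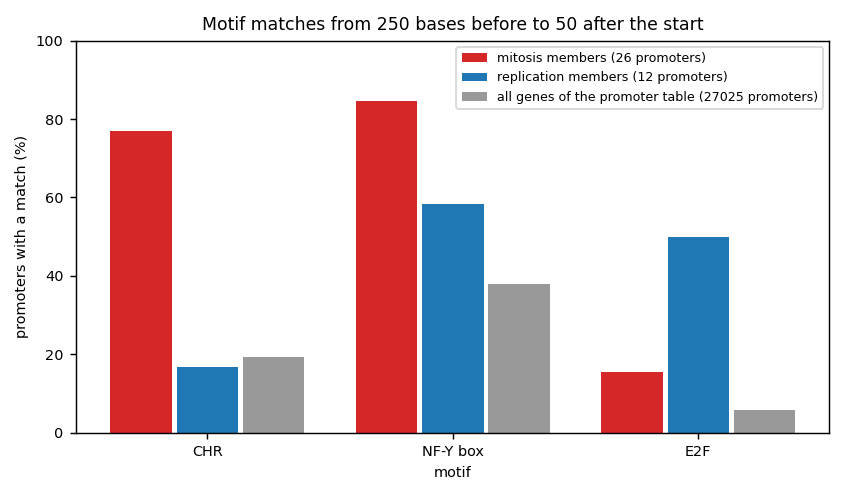
Share of promoter windows (%, vertical axis, from 0 to 100) with at least 1 match to a CHR, an NF-Y box or an E2F motif, for mitosis genes (red), replication genes (blue) and all genes of the RefSeq promoter table (grey). The CHR bar is highest for mitosis genes at 76.9% and the E2F bar highest for replication genes, at 6 of 12 windows.

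Before the expression values, 6 arrays need naming. The brightest Esr1 probe set, which may also read the driver because the Mer portion derives from the estrogen receptor gene, gave 12437 to 155949 in 21 of the 24 transgenic arrays. It gave 688 in HRas-v12 female early replicate 3 as labelled, and 2915 and 1327 in the arrays labelled HRas-v12 male late replicates 1 and 3. The arrays labelled MKK7D control female late replicates 8 and 9 read 106402 and 91291, against 294 to 7943 in the shared controls. Sex-linked genes stood at male levels in the library labelled MKK7D control female early replicate 1. Results are therefore given with these 6 arrays and, for most comparisons where the count moves, without them. All 8 heart muscle markers passed the filter, and the summed signal of the 8 lay between 801160 and 1653300 over the HRas-v12 early and control arrays.

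Early HRas-v12 hearts held more RNA of most replication and mitosis genes than controls. Of the 34 genes tested, 28 rose and 0 fell at an adjusted p under 0.05 in limma, against a background of 15.1% of all 12626 genes called higher and 18.7% called lower. At an unadjusted p under 0.05, 29 rose and 0 fell, beside 5425 of all 12626 genes in either direction. The median log2 change of the 34 was 1.45, and that of all genes -0.05. Among replication genes 9 of 11 rose, with a median of 0.97, and among mitosis genes 19 of 23, with a median of 1.64. Without the filter 32 of the 44 measured genes rose and 1 fell, against 9.97% and 12.8% of all 18193 genes, and the median of the 44 was 1.46. Changes are on the scale log2(signal + 32) and understate those of dim genes. In bulk tissue, more cells in the cycle and more RNA per cell cannot be told apart.

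Origin licensing and the helicase come first. Mcm3, a subunit of the MCM helicase, read 3843 and 1121 in the female and 5650, 2682 and 6949 in the male HRas-v12 early arrays, against 1254, 1100 and 1570 in control females and 1518, 1074 and 1461 in control males. All male early arrays and the first female array lay above every control, and female replicate 3 lay among the controls. Mcm3 was 2.35-fold higher, with a log2 change of 1.23 and an SE of 0.27 (limma adjusted p = 0.00115). Its partners Mcm4, Mcm7 and Mcm2 were 1.95-fold (0.96, adjusted p = 0.00196), 1.90-fold (0.93, adjusted p = 0.00216) and 1.77-fold higher (0.83, adjusted p = 0.0223).

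Mcm5 and Mcm6 did not pass. Mcm5 read 3976 and 107 in female and 8130, 2264 and 9235 in male HRas-v12 early arrays, against 765, 331 and 659 in control females and 1656, 586 and 1197 in control males. All early arrays but 1 thus exceeded every control, while female replicate 3 lay below all of them, and the log2 change of 1.36 had an SE of 0.55 (adjusted p = 0.0568). Mcm6 stood at 1.06 (SE 0.52, adjusted p = 0.119), again with female replicate 3 the lowest array at 104. Without the 6 arrays in doubt Mcm5 stood at 2.57 and Mcm6 at 2.28 (limma adjusted p = 1.91e-05 and 3.77e-05). Cdt1, which loads the helicase, was 1.95-fold higher, with a log2 change of 0.97 and an SE of 0.27 (adjusted p = 0.00691).

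Cyclin E and the supply of nucleotides followed. Ccne2 was 2.14-fold higher (log2 change 1.10, adjusted p = 0.00752) and Ccne1 1.96-fold (0.97, adjusted p = 0.0413). Ccne1 differed by sex in its controls: it read 1184 and 552 in HRas-v12 early females against 1003, 1222 and 1040 in control females, and 2345, 814 and 1710 in HRas-v12 early males against 546, 134 and 247 in control males. The male groups were apart and the female groups overlapped, with a log2 change of 2.35 in males (adjusted p = 0.00054) and of -0.41 in females (adjusted p = 0.789). The test of the difference between the sexes gave 2.75 on the log2 scale (SE 0.73, adjusted p = 0.0568).

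Rrm2, the small subunit of the enzyme that makes deoxyribonucleotides, read 4720 and 984 in female and 10487, 2215 and 9840 in male HRas-v12 early arrays, against 610, 640 and 701 in control females and 761, 679 and 2885 in control males. Control male replicate 5 stood apart from the other controls and above male early replicate 2. Rrm2 was 4.10-fold higher, with a log2 change of 2.04 and an SE of 0.45 (adjusted p = 0.00125). Pcna, the clamp that holds DNA polymerase, read 23628 and 14139 in female and 36233, 19875 and 33229 in male early arrays, against 12119, 12683 and 10282 in control females and 10949 to 15167 in control males. All 5 early arrays exceeded every control array of their own sex, and the change was 1.84-fold, with a log2 change of 0.88 and an SE of 0.16 (adjusted p = 0.000196). Cdc6 and Tk1, below the filter, stood at 2.63 and 2.46 in a fit without it (adjusted p = 0.000394 and 0.00973).

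**Figure D2:**
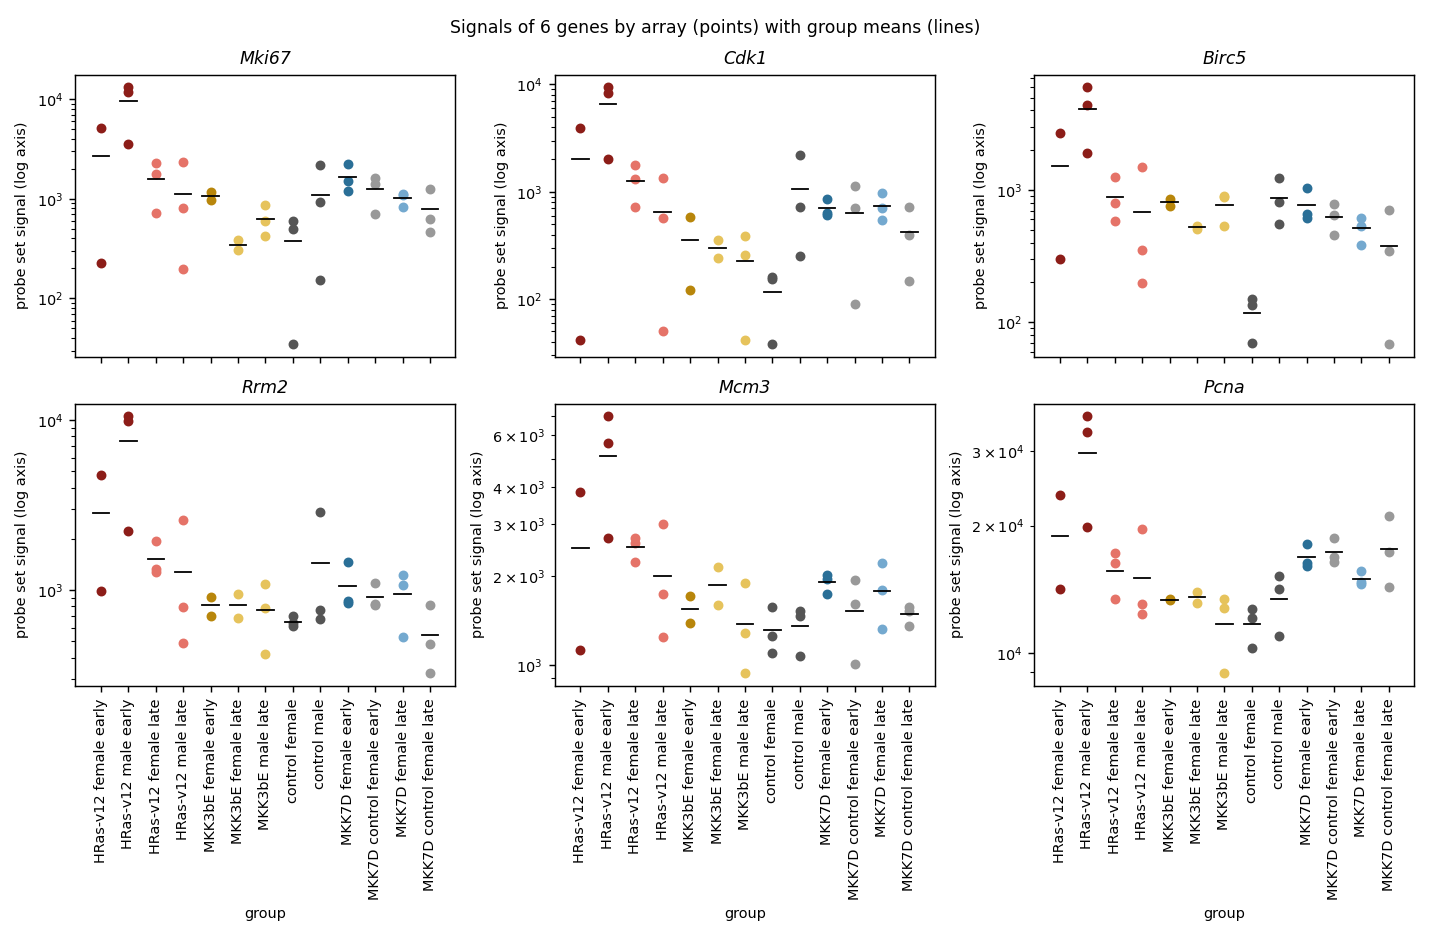
Probe set signals (log axis) of Mki67, Cdk1, Birc5, Rrm2, Mcm3 and Pcna by group. Points are arrays and lines group means. For Mcm3 all 3 HRas-v12 early male arrays (2682 to 6949) and 1 of 2 early female arrays (3843) lie above the control arrays (1074 to 1570).

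Of the mitosis genes, the drivers of the cycle rose strongly in the same arrays. Cdk1, the kinase of mitotic entry, read 3969 and 42 in female and 9389, 2004 and 8399 in male HRas-v12 early arrays, against 38, 159 and 153 in control females and 728, 253 and 2214 in control males. Control male replicate 5 was again the highest control and lay above male early replicate 2. The change was 5.26-fold, with a log2 change of 2.40 and an SE of 0.82 (adjusted p = 0.0257). Its partners Cks2, Ccnb2 and Ccna2 were 4.43-fold (2.15, adjusted p = 0.00219), 3.60-fold (1.85, adjusted p = 0.00441) and 2.93-fold higher (1.55, adjusted p = 0.00106). Mki67, which coats mitotic chromosomes and is the common marker of cycling cells, read 5125 and 224 in female and 13149, 3558 and 11854 in male early arrays, against 35, 501 and 602 in control females and 925, 152 and 2186 in control males. The male groups did not overlap, female replicate 3 lay among the control females, and the change was 6.77-fold, with a log2 change of 2.76 and an SE of 0.69 (adjusted p = 0.00328).

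Anln, the actin-binding scaffold of the cleavage furrow, had the largest change of the 34 genes tested, 8.42-fold, with a log2 change of 3.07 and an SE of 0.62 (adjusted p = 0.000633). It read 3381 and 331 in female and 8692, 2404 and 7781 in male HRas-v12 early arrays, against 74, 137 and 285 in control females and 359, 300 and 843 in control males. The groups of each sex did not overlap, although female replicate 3 exceeded the control females by little. Birc5, a member of the chromosomal passenger complex, was 5.32-fold higher (2.41, SE 0.49, adjusted p = 0.00068), at 2719 and 298 in female and 5979, 1904 and 4419 in male early arrays, against 70 to 151 in control females and 558 to 1242 in control males. Its groups did not overlap within a sex, and the control sexes lay apart.

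Prc1 and Racgap1, of the central spindle, were 4.23-fold (log2 change 2.08, adjusted p = 0.000704) and 3.11-fold higher (1.64, adjusted p = 0.000419). The chromokinesin Kif22 was 3.40-fold higher (1.77, adjusted p = 0.000168). Hmmr, a spindle protein, was 3.44-fold higher (1.78, adjusted p = 0.0022). Aurkb and Plk1, mitotic kinases, were 3.11-fold (1.64, adjusted p = 0.00103) and 3.04-fold higher (1.60, adjusted p = 0.00767). Top2a, which untangles sister chromatids, was 3.36-fold higher (1.75, adjusted p = 0.00279). At the exit of mitosis, Ube2c, the ubiquitin-conjugating enzyme of the anaphase-promoting complex, was 4.89-fold higher (2.29, adjusted p = 0.00076) and its activator Cdc20 2.22-fold (1.15, adjusted p = 0.0055). The remaining called genes Nusap1, Kif11 and Kif23 lay between 1.28 and 1.56.

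Cenpf, Aurka, Foxm1 and Tpx2 were the 4 mitosis genes that did not pass. Aurka, a spindle pole kinase, stood at 0.82 (SE 0.57, adjusted p = 0.276), and female replicate 3 had the lowest of all its signals in these groups at 42. Cenpf stood at -0.92 (SE 0.54, adjusted p = 0.198), and it is described with the MKK3bE line. For Foxm1, the transcription factor of the G2 and M genes, and Tpx2, an activator of Aurora A, the result depended on the probe set. The brightest ones stood at 0.08 and -0.15, while a second Foxm1 probe set stood at 2.42 (adjusted p = 0.000363) and 2 further ones of Tpx2 at 1.52 and 1.89 (adjusted p = 0.0029 and 0.0173) in a limma fit of every probe set. Bub1, a checkpoint kinase, disagreed in the same way, at -1.38 (adjusted p = 0.0252) for the brightest and 2.47 (adjusted p = 0.00386) for the other probe set, and for the checkpoint kinase Bub1b the brightest stood at 0.46 while the others reached 2.58 and 2.89. Over all 103 probe sets of the 44 genes, 58 rose and 1 fell, against 16.4% of all probe sets called in either direction, and 39 genes had at least 1 probe set that rose. The 5 without one were Aurka, Cenpf, Mcm6, Ttk and Tyms.

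**Figure D3:**
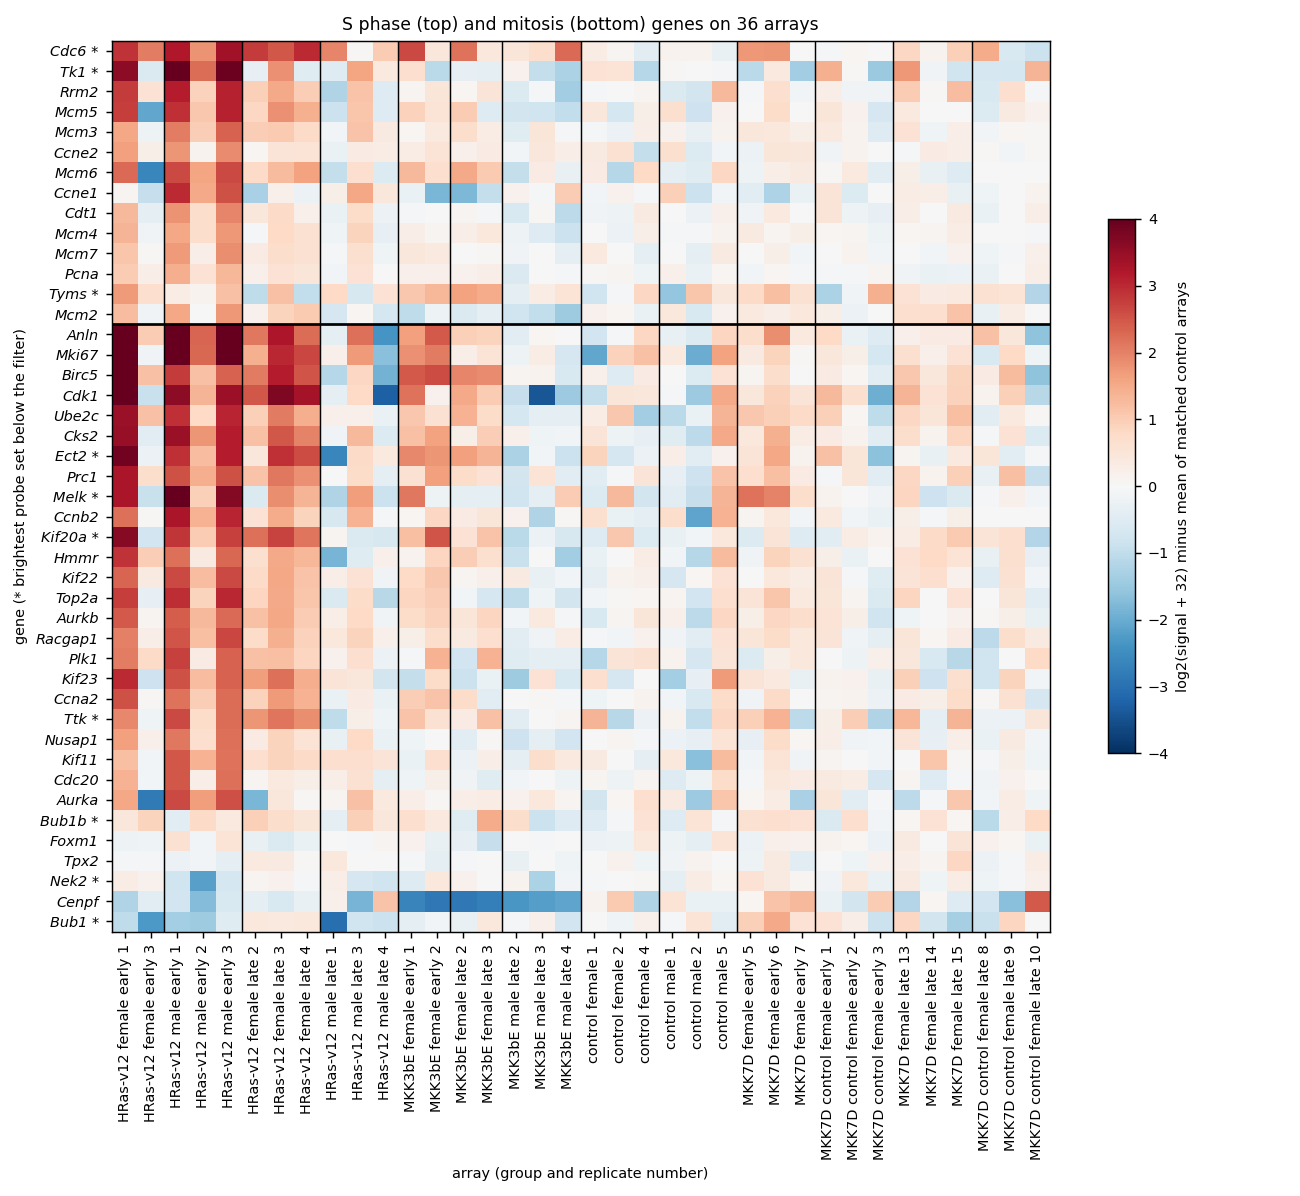
Difference of each array from the mean of its matched control arrays, on the scale log2(signal + 32), for 44 genes (rows, replication above the line and mitosis below) on 36 arrays (columns, by group and replicate number). Red is above and blue below the control mean, the colour scale ends at 4 either way, and an asterisk marks a brightest probe set below the filter. HRas-v12 female early replicate 1 and male early replicates 1 and 3 are red in most rows, female early replicate 3 is near the controls, and Cenpf is blue in all 7 MKK3bE arrays.

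The 5 early HRas-v12 arrays were not alike. The median deviation of the mitosis genes from the control mean of the same sex was 2.40 and -0.07 in female replicates 1 and 3, and 2.59, 1.00 and 2.37 in male replicates 1, 2 and 3. For the replication genes it was 1.59 and -0.14 in the females and 1.93, 0.82 and 2.16 in the males. Both groups of genes thus had male replicate 2 next to last and female replicate 3 last, at the level of the controls. Esr1 in that array was 688, against 95274 in female replicate 1.

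Counts of the 34 genes followed these arrays. No share of all genes was taken for the fits with 1 array left out. Without female early replicate 1, 11 of the 34 genes were called, among them Anln (log2 change 2.27), Prc1 (1.43), Kif22 (1.27), Pcna (0.70), Rrm2 (1.48) and Mcm3 (0.80), while Cdk1 stood at 0.95 (limma adjusted p = 0.461) and Mki67 at 1.68 (adjusted p = 0.108). Without female early replicate 3, 31 were called. In a fit that left out the 6 arrays named above, and with them 1 of the 2 early females, 32 of the 34 genes were called, 31 higher, and Cenpf lower (-1.12, adjusted p = 0.0276), against 42.3% of all genes called. Within males alone 31 of the 34 rose (16.5% of all genes), and within females alone 0 genes of any kind were called (13 of the 34 higher at an unadjusted p under 0.05, and 1645 of all 12626 genes). The change in males against that in females passed in limma for 0 of the 34 genes (1.1% of all genes called). At an unadjusted p under 0.05, 4 of the 34 passed, beside 2376 of all 12626 genes. Of the 44 differences 36 lay above 0. Without female early replicate 1 the early female arm was replicate 3 alone, which lay at the level of the controls. The count of that fit therefore cannot show a difference between the sexes.

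Of 36 further replication genes tested, 13 rose and 1 fell, against the 15.1% of all genes called higher and 18.7% called lower in this comparison. Those that rose included Uhrf1, which maintains DNA methylation, at 1.75 (limma adjusted p = 0.00918), Dbf4 and Cdc7, the kinase that fires origins, at 1.42 and 1.21, and Rrm1, the partner of Rrm2, at 1.14. The one that fell was Gmnn, the inhibitor of Cdt1, at -0.87 (adjusted p = 0.00479). Of 29 further mitosis genes, 19 rose and 0 fell, beside the same shares of all genes, with Cdca8 of the passenger complex at 2.01 (adjusted p = 0.00147), Mad2l1 of the spindle checkpoint at 1.55, the condensin subunit Smc4 at 1.51 and the centromeric histone Cenpa at 1.12. Medians were 0.39 and 1.03 for the further replication and mitosis genes. Of 16 genes of the Rb, E2F and DREAM group, 4 rose and 3 fell, which is near the background shares.

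Cell type markers moved in the same comparison, in which 15.1% of all genes were called higher and 18.7% lower. All 8 heart muscle markers fell, with a sum of 801160 to 1167300 in HRas-v12 early arrays against 1231000 to 1653300 in control arrays. Macrophage markers rose in 7 of 12, with sums of 62823 and 153180 in females and 195670 to 239360 in males, against 66983 to 98098 in controls. Fibroblast markers rose in 5 of 10 and fell in 1, with a sum of 319870 to 597280 against 320630 to 411660. Endothelial markers fell in 9 of 10, with a sum of 45805 to 89363 against 72364 to 103950. Lymphocyte markers summed to 1632 to 2759 in HRas-v12 early arrays, against 1752 to 3251 in control arrays, and red cell precursor markers to 1570 to 15888, against 3210 to 41193. The lowest macrophage sum belonged to the same array, female replicate 3, that had the lowest mitosis median. No marker was listed at 0, since the lowest signal in the files was 0.4, and the part of these cell types in the result was not tested.

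Late HRas-v12 hearts had 0 of the 34 genes called in limma (9.52% of all genes called, 4.86% higher). At an unadjusted p under 0.05, 6 of the 34 were higher and 0 lower, beside 3576 of all 12626 genes in either direction. The median log2 change was 0.54 for the 34, against 0.02 for all genes, at 0.29 for replication and 0.69 for mitosis genes. The genes with the smallest p were Mcm3 at 0.70 (SE 0.26, adjusted p = 0.0734), Racgap1 at 0.77 (SE 0.30, adjusted p = 0.09) and Kif22 at 0.69 (SE 0.29, adjusted p = 0.117). Cdc6, which lies below the filter, stood at 1.88 in a fit without it (adjusted p = 0.0262, with 2.45% of all 18193 genes called higher), the 1 gene of the 44 called there. The largest change among those tested was that of Mki67, 1.22 (SE 0.65, adjusted p = 0.214).

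By sex, the late values were as follows. In females 24 of the 44 genes, 5 replication and 19 mitosis genes, read higher in all 3 late arrays than in all 3 controls, against 14.6% of all 18193 genes. In males 0 of 44 did so, against 4.34%. Birc5 read 586, 1264 and 796 in HRas-v12 late females against 135, 70 and 151 in control females, and 354, 1501 and 199 in HRas-v12 late males against 814, 558 and 1242 in control males. The female groups were apart, and male replicate 3 alone exceeded the control males. Its change was 2.58 in females (limma adjusted p = 0.0234) and -0.74 in males (adjusted p = 0.723), and it was the 1 gene of the list called in females (4.44% of all genes higher).

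The difference between male and female late changes passed in limma for 0 genes of any kind. At an unadjusted p under 0.05, 6 of the 34 passed, all lower in males, beside 988 of all 12626 genes in either direction. Without the 6 arrays in doubt the male arm was 1 array, replicate 4, whose spread was taken from the other groups. The difference of that array then passed for Anln (-4.88), Birc5 (-4.48) and Cdk1 (-6.42), against 3.77% of all genes. The median deviation of mitosis genes was 0.81, 1.53 and 1.12 in the late female replicates 2, 3 and 4, and -0.01, 0.70 and -0.27 in the late male replicates 1, 3 and 4. Esr1 read 1327 in male replicate 3, 2915 in replicate 1 and 155949 in replicate 4. Heart muscle markers fell in 6 of 8 late, beside 4.66% of all genes called lower and 4.86% called higher. Fibroblast markers rose in 3 of 10, and of 12 macrophage markers 1 rose and 1 fell. The macrophage markers summed to 112410 to 159980 in late females, against 66983 to 93242 in control females. In late males they summed to 73979, 301880 and 54993 in replicates 1, 3 and 4, against 75966 to 98098 in control males. Male replicate 3, with the raised mitosis genes, thus had the highest macrophage sum of the 36 arrays, and its part in the values was not tested.

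Set directly against early hearts, late HRas-v12 hearts read lower for 10 of the 34 genes and higher for 0, against 4.67% of all genes called lower (limma). Anln stood at -1.90 (SE 0.62, adjusted p = 0.0459), Hmmr at -1.56 (SE 0.42, adjusted p = 0.0176), Rrm2 at -1.55 (SE 0.45, adjusted p = 0.0252), Ube2c at -1.51 (SE 0.47, adjusted p = 0.0373), Birc5 at -1.49 (SE 0.49, adjusted p = 0.0474) and Top2a at -1.33 (SE 0.43, adjusted p = 0.0423). Pcna, Kif22, Nusap1 and Cdc20 were the other 4, at -0.60 to -1.08. The count depended on single arrays of both times. Among early arrays it was 0 without female replicate 1, 28 without female replicate 3, 1 and 2 without male replicates 1 and 3, and 20 without male replicate 2. Among late arrays it was 1 and 4 without female replicates 2 and 4, 2 without male replicate 1 or 4, and 20 without male replicate 3. With the fit limited to the groups of these 2 times it was 0. The share of all genes called was not taken for these fits, so their counts have no background beside them.

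**Figure D4:**
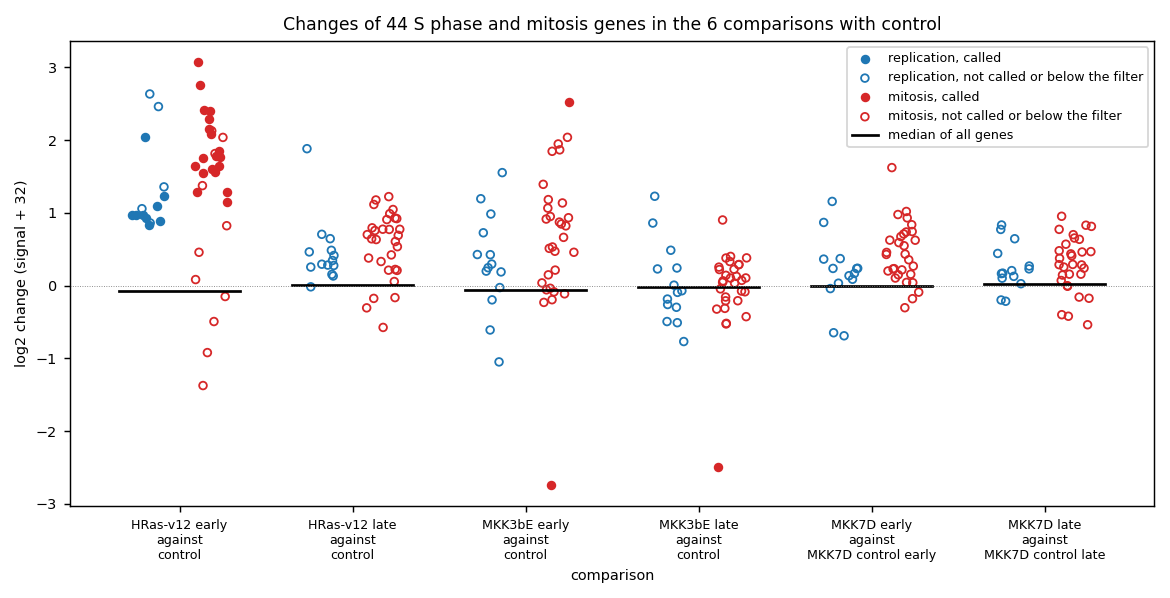
Log2 changes, on the scale log2(signal + 32), of 44 genes in the 6 comparisons of a line and time with its control. Filled points were called in limma and open ones were not called or lay below the filter, replication genes are blue and mitosis genes red, and black lines are medians of all genes. The filled points are 28 in early HRas-v12 hearts, Birc5 and Cenpf in early MKK3bE hearts and Cenpf in late MKK3bE hearts.

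In MKK3bE hearts 1 gene stood out downwards. Cenpf, a large protein of the outer kinetochore and the nuclear matrix that peaks in G2 and mitosis, read 1208 and 1023 in early females, 1036 and 1129 in late females and 1024, 1132 and 1219 in late males. Control females read 8405, 15849 and 3334, and control males 7805, 4393 and 4372. The 7 MKK3bE arrays lay within a narrow range and below every other array of the series, the lowest of which read 1332. The change was -2.50 late (5.65-fold lower, SE 0.54, limma adjusted p = 0.00447), the only 1 of the 34 genes called in that comparison (10.4% of all genes, 5.39% lower). Early it was -2.75 (6.70-fold lower, SE 0.81, adjusted p = 0.0399).

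The second Cenpf probe set ran the same way against the shared controls. It averaged 361 in early females, 596 in late females and 442 in late males, against 1242 in control females and 1083 in control males, and its 7 MKK3bE signals of 219 to 623 were all below the 6 controls, the lowest of which read 770. Its log2 change was -1.71 early and -1.12 late. Arrays of other groups read within its MKK3bE range, among them MKK7D control female late replicate 9 at 278 and HRas-v12 male early replicate 1 at 492. The third Cenpf probe set was dim and was not called. Its means were 161 in early MKK3bE females, 214 in late females and 275 in late males. Control females averaged 215 and control males 221 on it. In the limma fit of every probe set on its own, 1 of the 103 probe sets was called in late MKK3bE hearts, and 0 in early ones, against 3.26% and 2.03% of all probe sets. In late HRas-v12 hearts Cenpf read 5810, 4956 and 6189 in females and 6084, 1453 and 11650 in males, which was 2.19 on the log2 scale above the late MKK3bE hearts (SE 0.54, adjusted p = 0.0183), the only gene of the 34 called there, against 3.95% of all genes. Controls themselves spread widely, and of the late MKK7D controls replicate 10 read 23772, against 2498 and 1332 in replicates 8 and 9.

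**Figure D5:**
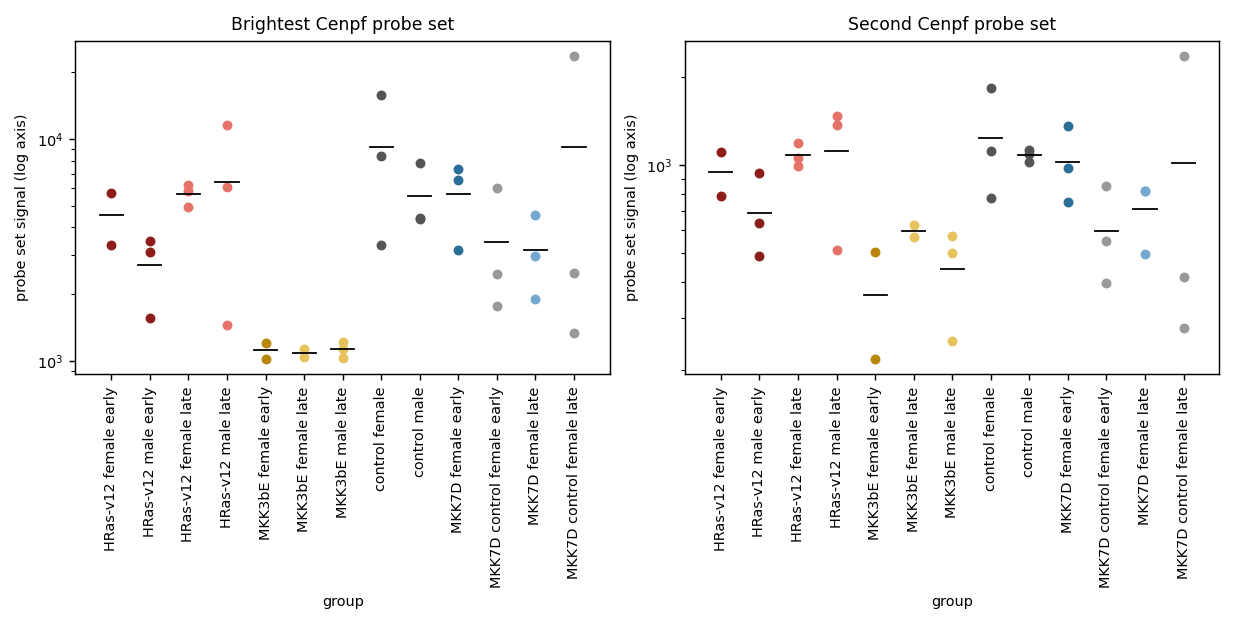
Signals (log axes) of the 2 brighter Cenpf probe sets by group, with arrays as points and group means as lines. On the brightest probe set the 7 MKK3bE arrays lie at 1023 to 1219, below the control arrays at 3334 to 15849.

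Birc5 was the 1 gene of the list that rose in early MKK3bE hearts, at 760 and 860 against 135, 70 and 151 in control females (5.76-fold, log2 change 2.53, SE 0.74, limma adjusted p = 0.0373, 3.48% of all genes higher and 2.78% lower). The groups did not overlap. Other control females did read as high, at 782, 649 and 455 in the MKK7D control early arrays, and the MKK7D control females stood 2.15 above the control females for Birc5 (SE 0.66, adjusted p = 0.093). Anln stood at 2.04 in early MKK3bE hearts (SE 0.93, adjusted p = 0.183), Mki67 at 1.95 (adjusted p = 0.254) and the median of the 34 genes at 0.44, against -0.03 for all genes. In the MKK7D control early arrays, set against the same control females, the median of the 34 was 0.475, against -0.025 for all genes. In the early MKK3bE females 18 of the 44 genes, 6 replication and 12 mitosis genes, exceeded all control females, against 15.8% of all genes. With 2 early arrays both calls ended when either was left out.

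Late, the median of the 34 genes was 0.02 in MKK3bE hearts. After Cenpf the smallest p belonged to Mcm2 at -0.77 (SE 0.28, adjusted p = 0.0725) and Birc5 at 0.90 (SE 0.49, adjusted p = 0.248). None of the 6 arrays in doubt belongs to these groups, so without them only the spread shared over all groups changed. Mcm2 and Birc5 were then called, at limma adjusted p = 0.0355 and 0.0267, against 20.4% of all genes. Early MKK3bE hearts were all female, so the next comparisons used females only and left out the 3 early HRas-v12 male arrays. Early HRas-v12 females, which include replicate 3 named above, were set against early MKK3bE females, 2 arrays each. In limma 0 of the 34 genes was called (1.81% of all genes). At an unadjusted p under 0.05, 4 of the 34 were higher, beside 1774 of all 12626 genes in either direction. Late against early MKK3bE females also gave 0 (0 at an unadjusted p), with 1 gene of any kind called (0.00792%). Of the 10 fibroblast markers 4 rose in MKK3bE hearts at each time, against 3.48% of all genes early and 5.06% late, and of the 12 macrophage markers 0 rose. The part of the fibroblasts in these values was not tested.

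In MKK7D hearts 0 of the 34 genes was called early (0.135% of all genes) or late (0%) in limma. At an unadjusted p under 0.05 there were 0 early and 2 late, beside 1346 and 643 of all 12626 genes. The median of the 34 was 0.23 early and 0.27 late, against 0.00 and 0.02 for all genes. Ube2c, Ccne1 and Racgap1 had the smallest p early, at 0.93, -0.65 and 0.55 (adjusted p = 0.639, 0.672 and 0.679). Late these were Mcm2, Tpx2 and Ube2c, at 0.83, 0.41 and 0.83 (adjusted p = 0.974, 0.98 and 0.999). Mki67 read 1505, 2212 and 1201 in early MKK7D hearts against 1619, 1393 and 712 in their controls, and the groups overlapped. Without the 6 arrays in doubt, which leaves replicate 10 as the 1 late control with its spread taken from the other groups, Birc5 (2.41, adjusted p = 0.0135) and Cenpf (-2.99, adjusted p = 0.0119) were called late, against 3.39% of all genes. That control read 69 for Birc5 and 23772 for Cenpf, the extremes of its group.

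The shared controls were not uniform for these genes. Between control males and control females 0 genes of any kind were called in limma. At an unadjusted p under 0.05, 6 of the 34 passed, beside 1148 of all 12626 genes. Of the 44 differences 36 lay above 0 (median 0.62 over the 34 tested). Birc5 stood at 2.56 (SE 0.66, limma adjusted p = 0.132) and Ccne1 at -1.90 (SE 0.49, adjusted p = 0.132). The mitosis genes of control male replicate 5 had a median of 0.73 above the control male mean, while those of replicates 1 and 2 had -0.13 and -0.55. For the early HRas-v12 change, leaving out control male replicate 5 left 27 of the 34 genes called.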

How the data were processed

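Probe set intensities of 36 arrays in 13 groups of 2 or 3, on a linear scale, had been made by the authors with MAS5, per the submitters' processing notes (version not given in the sources used here). Each array's mean, with 2% of the probe sets left off at each end, was 2499 to 2500. Detection calls were not used. Of 45101 probe sets, 34958 had 1 gene symbol in the platform annotation, 932 several and 9211 none. Log2(intensity + 32) was computed from the deposited values without further scaling. The upper 60% of probe sets by mean were kept (mean of at least 8.80, a signal of 414.3), and the brightest probe set per gene gave 12626 genes. Group means were fitted over all arrays in limma 3.58.1 (R 4.3.3, intensity trend, 23 residual and 4.61 prior degrees of freedom) in 17 comparisons. Sexes were averaged where both were present, and a gene was called at a Benjamini-Hochberg adjusted p under 0.05 over all genes tested. The fit was tested on simulated data.

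Members and lists were chosen with earlier results of these data known. Of each comparison with control, up to 6 replication and 10 mitosis genes with the largest change among those called are named, or the 3 with the smallest p where under 3 were called. Cenpf, Birc5, Mki67, Top2a, Cdk1, Mcm2, Mcm5, Pcna, Rrm2 and Ccne1 may be named throughout, and other genes were chosen after their values were seen. Alternatives were the pseudocount, the filter, quantile normalization, the mean of probe sets, the trend, the groups in the fit, a replicate block and arrays left out. Fits per sex and of every probe set were added after seeing the data. Where several promoter entries existed the first was used.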

Additional observations from a re-analysis of the deposited data

Results flagged for a closer look

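In groups of 5 or 6 arrays with both sexes, an array was picked out when its gap to the nearest other array was a large part of the group's range, on the log2 scale. This was done for 92 pairs of a gene and a group over 23 genes, and 7 were picked out; chance alone picks about 1 in 20. The gap as a share of the range was 0.861 for Rrm2, 0.698 for Cks2 and 0.654 for Racgap1, all with control male replicate 5 as the highest control. In late MKK3bE hearts the lowest array was male replicate 3 for Cdk1 (0.756) and Ccnb2 (0.753), and male replicate 2 for Pcna (0.809). In late HRas-v12 hearts it was male replicate 4 for Cdk1 (0.647).

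Among the named genes, changes that differed between times or lines by a test of the difference in limma included those of late against early HRas-v12 hearts, at -1.898 for Anln, -1.562 for Hmmr, -1.551 for Rrm2, -1.515 for Ube2c, -1.492 for Birc5 and -1.328 for Top2a on the log2 scale. Pcna, Kif22, Nusap1 and Cdc20 also passed there, at -0.60 to -1.08. The 10 calls were lost without HRas-v12 female early replicate 1, where 0 of the 34 genes was called, and 1 to 4 of the 34 were called without male early replicate 1 or 3, female late replicate 2 or 4, or male late replicate 1 or 4. Between lines it was Cenpf in late HRas-v12 against late MKK3bE hearts, at 2.191, which lost its call without either late MKK3bE female array.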

How the results depend on the processing

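Counts below are of the 34 genes in limma. For the fits with 1 array left out no share of all genes was taken beside them. Early HRas-v12 against control had 28 called, 11 to 31 with 1 array left out (lowest without female early replicate 1), 11 of 16 tested with the upper 40% of probe sets kept, and 0 in females only. The 1 change of sign was that of Ccne1 in females only, -0.405. Late against early HRas-v12 had 10, and the count moved with single arrays left out as listed above. It was 17 with the larger pseudocount, 5 without a filter, 5 with the upper 40% and 0 with only the groups compared. Without the 6 arrays in doubt the count rose, with nearly all calls lower in late hearts. That fit holds 1 early female and 1 late male HRas-v12 array, so its count is not given. Late HRas-v12 against control had 0, or 1 without a filter (Cdc6), 1 in females only (Birc5) and 0 to 1 with 1 array left out (1 without male late replicate 1 or 4). Early MKK3bE against control had 2, at 0 to 1 with 1 array left out (0 without either MKK3bE array or control female replicate 1 or 2), and 1 with the larger pseudocount, without a filter and with the upper 40%. Late MKK3bE against control had 1, at 1 to 2 with 1 array left out (2 without control male replicate 2), 2 with only the groups compared, 3 without the arrays in doubt, and 0 in males only and in females only. Late HRas-v12 against late MKK3bE had 1, at 0 to 2 with 1 array left out (0 without MKK3bE female late replicate 2 or 3, 2 without HRas-v12 female late replicate 2) and 2 with the mean of probe sets. The early HRas-v12 change in males against females had 0, at 0 to 9 with 1 array left out and 1 with quantile normalization. Without the arrays in doubt, counts of 0 became 2 in late MKK7D against control, 1 in early HRas-v12 against early MKK3bE, 3 in the late HRas-v12 change in males against females, 1 in MKK7D control early against control females and 1 in control males against females. For early HRas-v12 against early MKK3bE the call without the arrays in doubt was higher, while that without HRas-v12 female early replicate 1 was lower. In both fits the early HRas-v12 females were 1 array. The highest count for the early HRas-v12 change in males against females came without female early replicate 1. Its early females were replicate 3 alone, so that count cannot show a difference between the sexes. Late against early hearts of the other lines, the MKK7D comparisons and the other sex differences had 0 with each array left out. The cause was not tested where a count moved, except as follows. Fewer genes were tested with the upper 40%. Without the arrays in doubt, late MKK3bE against control and control males against females kept all their arrays. There only the spread shared over all groups changed.

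The replicate numbers did not pair the arrays, with correlations of -0.057 to 0.074 between same-numbered arrays. With a replicate block, early HRas-v12 had 19 called, early MKK3bE 1, late MKK3bE 1, late against early HRas-v12 0, and late HRas-v12 against late MKK3bE 1. For the MKK7D comparisons no paired analysis was possible, because those arrays and their controls share no numbers. Of the values of single named genes under settings other than leaving out 1 array, 810 kept their direction and side of the threshold, 55 lost their call, 12 gained one and 1 changed sign. With 1 array left out, 693 kept both, 75 lost their call and 5 gained one. MAS5 signals carry no background level here, so low signals such as those of Melk or Cdc6 limit precision.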

Other observations

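Gmnn, the geminin gene whose product holds Cdt1 back until the next cycle, was among the further replication genes the 1 called lower in each comparison of HRas-v12 and MKK3bE hearts with control. Its log2 change was -0.87 in early and -0.81 in late HRas-v12 hearts (limma adjusted p = 0.00479 and 0.0248), and -1.46 in early and -0.88 in late MKK3bE hearts (adjusted p = 0.0112 and 0.014). These 4 comparisons share control arrays. Of all genes, 18.7% and 4.66% were called lower in early and late HRas-v12 hearts, and 2.78% and 5.39% in early and late MKK3bE hearts. A single gene of that list is not above these shares. In MKK7D hearts, which have controls of their own, it stood at -1.03 early and -0.37 late (adjusted p = 0.144 and 0.999). Cdt1 itself stood at 0.97 in early and 0.28 in late HRas-v12 hearts, at -0.03 and -0.26 in early and late MKK3bE hearts and at 0.09 and 0.20 in early and late MKK7D hearts, called in the first of these only.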
